A study of Mus musculus with 27 samples.

Results

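Control ventricles of mice were compared between postnatal day 7 and postnatal day 1 by RNA sequencing. The comparison takes the 3 libraries labelled P7_Ctl and the 4 labelled P1_Ctl, which are 7 of the 27 libraries of the study, and covers every gene with enough reads to test. The study set gain and loss of MBNL1, a muscleblind family protein that controls RNA splicing and stability, against normal maturation of the heart. P7_Ctl libraries carry the age P7 and P1_Ctl libraries the age P1, both with the tissue given as heart ventricle and both in the control genotype class. The remaining libraries, from transgenic hearts at day 7 and from knockout and control hearts at day 60, were not tested here, and levels in the day 60 controls are given at the end. Strain, sex, the alleles of the control animals and any pooling of hearts are absent from the labels. Whether samples of an age are separate animals is not stated. The p-values therefore weigh the difference between the ages only against the spread among these libraries, some of which may be technical.

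In the first days after birth the mouse heart muscle cell completes its last rounds of division, becomes binucleated and then leaves the cell cycle. Its fuel changes from glucose and lactate to the fatty acids of milk, under nuclear receptors of the PPAR and ERR families, and its sarcomeres exchange fetal for adult isoforms such as beta for alpha myosin heavy chain. Fibroblasts, pericytes and vessels grow and matrix is laid down over the same days.

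The P7_Ctl libraries held 24749296, 24817135 and 24222016 counts, and the P1_Ctl libraries held 25363309, 25675115, 25221190 and 25140399. Values of single libraries are given below in the order of their replicate numbers, as CPM, counts relative to the TMM-scaled library size. A count of 0 allows up to 3 counts, or 0.115 to 0.126 CPM in these libraries, for counting error only. CPM is not divided by gene length, so levels are compared for a gene between libraries and not between genes. The 10 genes that mark ventricular muscle were all present, the lowest averaging 77.7 CPM over the 7 libraries, and their summed level lay between 53974 and 61293 CPM. Counts of Xist and of Y-linked genes were those of a female for P7_Ctl library 1 and of males for libraries 2 and 3, and of a male for P1_Ctl library 1 and of females for libraries 2, 3 and 4.

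Libraries of the newborn group stood apart from each other. On the first principal component of 16000 genes, with 51.3% of the variance, the P7_Ctl libraries lay at 43.9, 44.1 and 44.4, against -42.9, -51.8, -20.7 and -17.0 for P1_Ctl libraries 1 to 4. On the second, with 21.8%, the P7_Ctl libraries lay at -3.32, -9.93 and -8.27, and the P1_Ctl libraries at -25.5, -24.6, 54.6 and 17.1. P1_Ctl libraries 1 and 2 therefore lay together, and libraries 3 and 4 lay apart from them and nearer to P7_Ctl on the first component. No label separates the 4 libraries. Within P7_Ctl, library 1 was low in atrial muscle genes: Myl7, the atrial regulatory light chain, had 35.8 CPM there, against 166 and 165 CPM in P7_Ctl libraries 2 and 3. The summed level of the 9 atrial genes was 252, 644 and 794 CPM in P7_Ctl and 1209, 1247, 899 and 1049 CPM in P1_Ctl. P7_Ctl library 3 held liver transcripts, with 126 CPM over 10 liver genes chosen after their values were seen, against 13.2 and 17.7 CPM in P7_Ctl libraries 1 and 2 and 16.6 to 44.9 CPM in P1_Ctl. P7_Ctl library 2 held 6.95 CPM of Ucp1, the uncoupling protein of brown fat, against at most 0.126 CPM in the other 6 libraries.

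**Figure D1:**
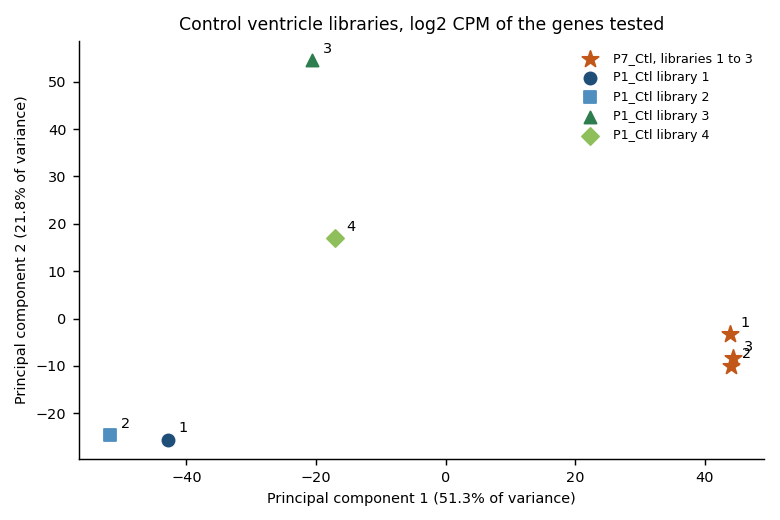
Principal components 1 and 2 of the 7 control ventricle libraries, from log2 CPM of the 16000 genes tested. Stars are P7_Ctl libraries, other markers are the P1_Ctl libraries, and numbers are replicate numbers. The 3 P7_Ctl libraries sit together between 43.9 and 44.4 on the first component, and the P1_Ctl libraries spread from -51.8 to -17.0.

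Of 16000 genes tested, 2882 (18.0%) were called, at an adjusted p under 0.05 in edgeR's quasi-likelihood test. In P7_Ctl 1501 genes (9.38% of those tested) rose and 1381 (8.63%) fell. Higher genes were 52.1% of the calls, and with total count scaling, which called 1302 higher and 1768 lower, they were 42.4%, so which direction is the more frequent depends on the scaling. At least a 2-fold difference was reached by 973 called genes (6.08%), of which 522 rose and 451 fell. The ranges of the 2 ages did not overlap for 5299 genes (33.1%). The spread at birth was the wider one: the median SD of a gene on the log2 scale was 0.101 over the P7_Ctl libraries and 0.211 over the P1_Ctl libraries. The P1_Ctl SD was the larger in 78.8% of genes. The test fits a shared dispersion of a gene to both ages, so its p-values do not take this inequality into account. For 12301 genes (76.9%) the range of the 4 P1_Ctl libraries exceeded the difference between the ages. Without P1_Ctl libraries 3 and 4, an alternative chosen after seeing the data, 6946 of 16145 genes (43.0%) were called. Of the 2864 genes called with all libraries and tested in both fits, 2842 were then called in the same direction. The sexes were spread unevenly over the ages, and with a sex term 983 genes were called higher and 807 lower. Of 205 called genes that the naming rule picks, 49 were then not called. Among the 94 called genes described below these were Ccnb1, Fos, Myh6, Nr4a1 and mt-Atp8, with adjusted p of 0.05, 0.13, 0.058, 0.084 and 0.26. With 1 library left out at a time the count ran from 1227, without P7_Ctl library 2, to 4050, without P1_Ctl library 3.

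**Figure D2:**
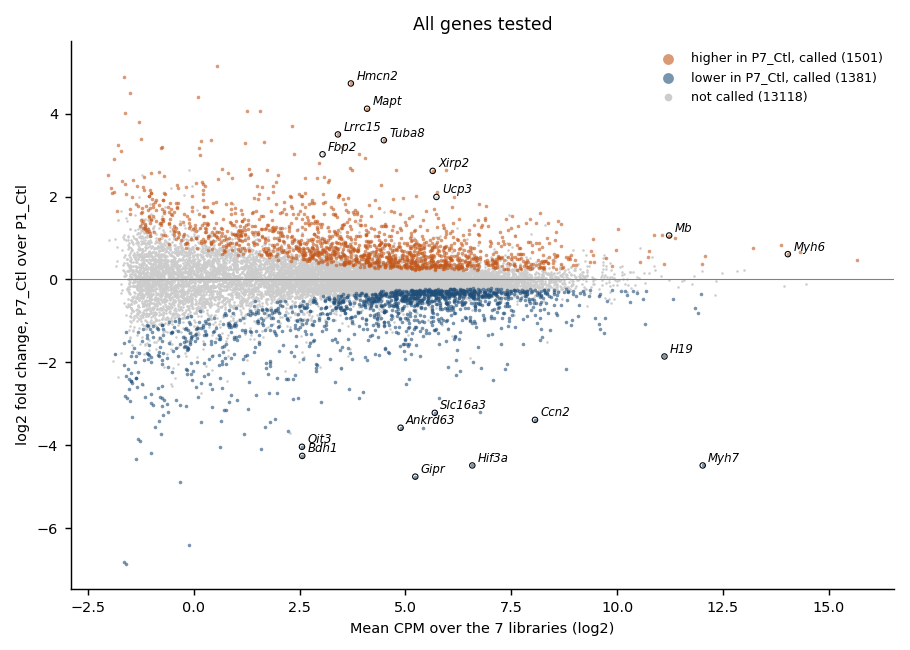
Log2 fold change of P7_Ctl over P1_Ctl against the mean CPM over the 7 libraries (log2 axis) for the 16000 genes tested. Called genes are coloured, 1501 higher and 1381 lower in P7_Ctl, and circled genes are described in the text. Ucp3 and Fbp2 are large differences that were not called.

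Genes were grouped in 61 lists by function. For each, the level of a library is the mean log2 CPM over the members tested. The share of members called is to be read beside the 18.0% called over all genes. The P7_Ctl and P1_Ctl libraries did not overlap in 33 of the 61 lists, and in 38 lists the range of the P1_Ctl libraries exceeded the difference between the ages. The SD among P1_Ctl libraries ran from 0.0327 for chaperones of the endoplasmic reticulum to 1.02 for complement and acute phase genes, with a median of 0.165 over the lists. The P1_Ctl library nearest to the P7_Ctl mean was library 4 in 29 lists, library 3 in 13, library 2 in 11 and library 1 in 8. Over the 2882 called genes it was library 4 for 38.9%, library 3 for 32.1%, library 1 for 16.6% and library 2 for 12.4%.

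**Figure D3:**
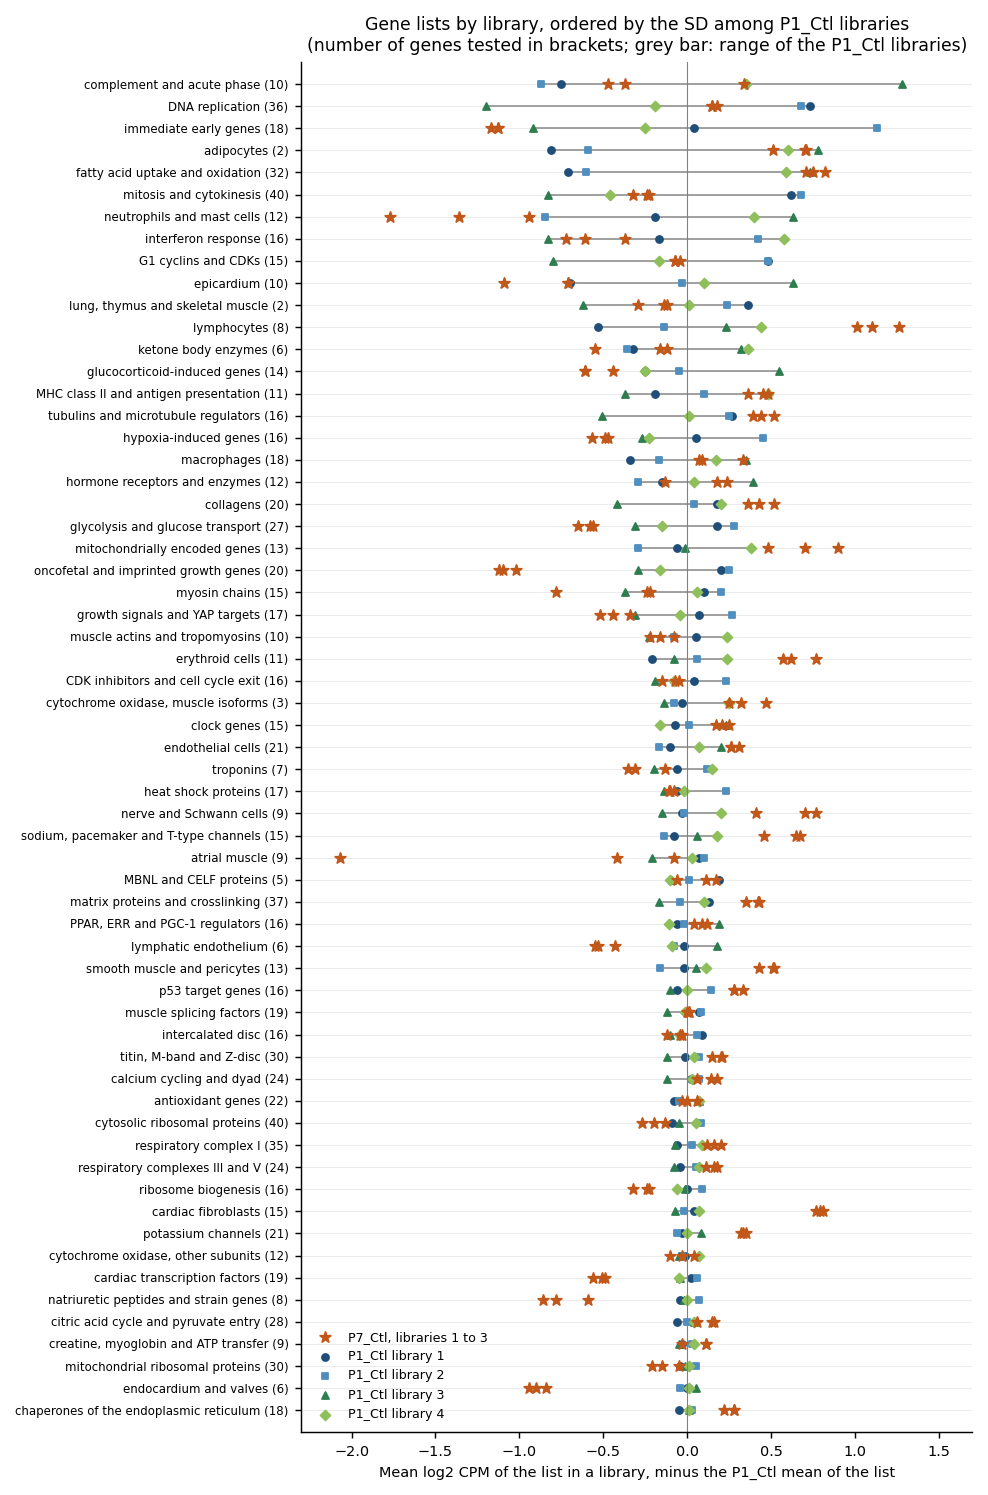
Mean log2 CPM of each of 61 gene lists in every library, minus the P1_Ctl mean of that list, with the lists ordered by the SD among the P1_Ctl libraries (largest at the top). Stars are P7_Ctl libraries, other markers the 4 P1_Ctl libraries, and grey bars the P1_Ctl range. At the top, P1_Ctl libraries 1 and 2 lie on one side and libraries 3 and 4 on the other for DNA replication, mitosis and fatty acid genes. At the bottom the P1_Ctl libraries coincide, and for cardiac fibroblast, endocardium and cardiac transcription factor genes the P7_Ctl libraries lie clear of them.

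Genes of cell division had one of the widest spreads among the newborn libraries, and few of them passed the test between the ages. Cdk1, the kinase that drives entry into mitosis, had 40.7, 37.8 and 38.8 CPM in P7_Ctl, against 72.5, 79.9, 27.7 and 37.6 CPM in P1_Ctl. The 3 P7_Ctl values lay below those of P1_Ctl libraries 1 and 2 and above those of libraries 3 and 4, and the log2 fold change of -0.48 ± 0.34 (SE) was not called (edgeR, adjusted p = 0.36). Mcm2, a subunit of the replicative helicase, had 73, 70.5 and 66.2 CPM in P7_Ctl, against 107, 104, 17.3 and 56.6 CPM in P1_Ctl, with a log2 fold change of -0.03 ± 0.49. P1_Ctl library 3 was the lowest of the 7 libraries for both genes. Ccnb1, the B-type cyclin that activates Cdk1, had 25, 26 and 25.4 CPM in P7_Ctl and 56.7, 63.2, 35.6 and 31.8 CPM in P1_Ctl, with no overlap. It was the 1 gene called of 40 in the mitosis list, and fell by 0.88 ± 0.23 on the log2 scale (edgeR, adjusted p = 0.034), and that call ended without P1_Ctl library 1 or 2 or any 1 P7_Ctl library (adjusted p up to 0.12).

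Promoter windows of 300 bases, from 250 bases before to 50 after the start, are shown for Cdk1, Ccnb1 and the replication licensing gene Cdc6, because the division genes moved together among the P1_Ctl libraries. They come from RefSeq on GRCm38.p6 and are written on the strand of the gene. Capitals mark the CCAAT box and the CHR element TTTGAA in Cdk1 and Ccnb1, and the E2F site TTCCCGC in Cdc6, each searched on both strands. The windows lie at chr10:69352863-69353162, chr13:100786437-100786736 (both minus strand) and chr11:98907901-98908200 (plus strand).
Cdk1: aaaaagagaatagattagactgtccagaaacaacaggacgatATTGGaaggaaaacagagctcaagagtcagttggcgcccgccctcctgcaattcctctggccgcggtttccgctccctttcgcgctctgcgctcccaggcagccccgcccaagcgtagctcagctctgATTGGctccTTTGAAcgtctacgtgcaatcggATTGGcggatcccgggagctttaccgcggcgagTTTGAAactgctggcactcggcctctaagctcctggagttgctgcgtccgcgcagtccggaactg
Ccnb1: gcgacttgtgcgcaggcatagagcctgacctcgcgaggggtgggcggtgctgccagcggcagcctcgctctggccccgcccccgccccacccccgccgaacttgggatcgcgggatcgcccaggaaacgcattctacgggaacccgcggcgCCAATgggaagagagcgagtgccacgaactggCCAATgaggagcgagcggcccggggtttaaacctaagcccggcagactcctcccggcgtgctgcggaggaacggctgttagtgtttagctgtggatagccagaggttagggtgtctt
Cdc6: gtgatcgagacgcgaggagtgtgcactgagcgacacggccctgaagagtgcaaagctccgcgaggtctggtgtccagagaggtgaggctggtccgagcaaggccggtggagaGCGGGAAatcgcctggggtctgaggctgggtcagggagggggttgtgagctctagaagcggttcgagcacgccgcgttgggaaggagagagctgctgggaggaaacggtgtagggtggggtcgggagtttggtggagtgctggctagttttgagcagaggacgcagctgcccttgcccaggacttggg
The Cdk1 window held 3 CCAAT and 2 CHR matches, the Ccnb1 window 2 CCAAT and 0 CHR matches, and the Cdc6 window 1 E2F match. Of 35 windows of 33 mitosis genes, 74.3% held a CCAAT box, 77.1% a CHR element and 0 an E2F site. Of 35 windows of 29 replication genes, 54.3% held a CCAAT box, 17.1% a CHR element and 42.9% an E2F site. Among all 32851 windows the shares were 37.4% for CCAAT, 17.9% for CHR and 4.60% for E2F. A match is a run of letters and not evidence of binding.

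Over the 36 DNA replication genes, 0 were called in either direction with all libraries, and the median log2 fold change was -0.05, against -0.02 over all genes tested. Their mean log2 level was 4.12, 4.12 and 4.15 in P7_Ctl and 4.70, 4.65, 2.77 and 3.78 in P1_Ctl, a range of 1.93 at birth (SD 0.910). Mitosis and cytokinesis genes stood at 4.81, 4.90 and 4.89 in P7_Ctl and at 5.75, 5.81, 4.30 and 4.67 in P1_Ctl, with an SD of 0.0482 over P7_Ctl and 0.761 over P1_Ctl. In both lists the P7_Ctl libraries lay between the P1_Ctl pairs. Without P1_Ctl libraries 3 and 4, 40 of 40 mitosis genes and 27 of 36 replication genes were called lower in P7_Ctl, with medians of -0.89 and -0.57. Over all genes 43.0% were called in that fit. The fit was chosen after the P1_Ctl pairs were seen, so these counts restate the split and are no separate support for a fall. Leaving out P1_Ctl library 3 alone gave 9 called mitosis genes and 1 called replication gene, leaving out P1_Ctl library 4 alone gave 3 and 0, and leaving out any other library gave 0 and 0.

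Regulators of the first gap phase showed the same pairs of libraries. The 15 G1 cyclin and kinase genes stood at 5.15, 5.12 and 5.12 in P7_Ctl, against 5.67, 5.67, 4.39 and 5.02 in P1_Ctl (SD 0.613). Among them 0 were called higher and 2 lower (13.3%, against 18.0% over all genes). The number called was 1 without P1_Ctl library 1 or any 1 P7_Ctl library, and 4 without P1_Ctl library 3. Ccnd1, a cyclin that activates Cdk4, had 127, 132 and 118 CPM in P7_Ctl and 137, 132, 75.5 and 122 CPM in P1_Ctl, and was not called (log2 fold change 0.11 ± 0.18). Myc, a transcription factor that promotes growth, was higher in each newborn library than at day 7, with 13.3, 12.5 and 11.4 CPM in P7_Ctl, against 54.2, 65, 36.7 and 30.2 CPM in P1_Ctl. It fell by 1.91 ± 0.26 on the log2 scale (edgeR, adjusted p = 0.0022). Of the CDK inhibitors, Cdkn1c, an imprinted gene that holds cells in G1, had 29.4, 31.2 and 29.1 CPM in P7_Ctl, against 73.6, 79.5, 70.2 and 69.2 CPM in P1_Ctl, and fell by 1.29 ± 0.08 (adjusted p = 0.00012). Cdkn1a, the p21 inhibitor, was not called, with a log2 fold change of 0.29. The calls of Myc and Cdkn1c held with any 1 library left out.

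Fatty acid genes had the second pattern of this kind, with the sign turned. The 32 genes of fatty acid uptake and oxidation stood at 8.19, 8.12 and 8.08 in P7_Ctl, against 6.66, 6.77, 8.10 and 7.96 in P1_Ctl (SD 0.0539 and 0.765). P1_Ctl libraries 3 and 4 lay at or just under the P7_Ctl level and libraries 1 and 2 more than 1 log2 unit below it. With all libraries 6 genes were called higher and 1 lower (21.9%, against 18.0% over all genes), with a median of 0.41. Without P1_Ctl libraries 3 and 4, 31 were called higher and 1 lower, with a median of 1.20. Over all genes 43.0% were called in that fit, which was chosen after the pairs were seen. Leaving out single libraries, the number of fatty acid genes called ran from 1, without P7_Ctl library 2 or 3, to 13, without P1_Ctl library 3 or 4.

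Among enzymes of the pathway, Acadm, the medium-chain acyl-CoA dehydrogenase, had 579, 565 and 578 CPM in P7_Ctl, against 327, 374, 418 and 445 CPM in P1_Ctl. It rose by 0.55 ± 0.10 on the log2 scale (edgeR, adjusted p = 0.0091), a call that held with any 1 library left out. Ech1, an isomerase for unsaturated fatty acids, had 662, 622 and 581 CPM in P7_Ctl and 131, 143, 354 and 356 CPM in P1_Ctl. All 4 newborn values lay below the 3 at day 7, in a lower and an upper pair, and the rise was 1.34 ± 0.36 (adjusted p = 0.035). Decr1, the reductase of the same branch, rose by 1.25 ± 0.30 (adjusted p = 0.023), and Fabp3, the fatty acid binding protein of heart muscle, rose by 1.08 ± 0.28 (adjusted p = 0.029). These last 3 calls ended when any P7_Ctl library was left out, with adjusted p up to 0.11, that of Ech1 also without P1_Ctl library 1 or 2 and that of Fabp3 without P1_Ctl library 2. Cpt1a, the isoform of carnitine palmitoyltransferase that is prominent in liver and fetal heart, had 152, 148 and 152 CPM in P7_Ctl, against 77.7, 76.7, 230 and 203 CPM in P1_Ctl, with the P1_Ctl pairs on either side. Its muscle counterpart Cpt1b had 9.22, 8.66 and 6.03 CPM in P7_Ctl, against 4, 3.73, 8.80 and 8.42 CPM in P1_Ctl, and neither gene was called. Cpt1b was low in the day 60 controls too, at a mean of 4.13 CPM scaled over the 14 control libraries. Reads of overlapping genes cannot be told apart in these counts, so its level is uncertain.

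The widest spread of any named gene at birth was that of Ucp3, a mitochondrial uncoupling protein of muscle, chosen here, as are Angptl4 and Fbp2, after its values were seen. Ucp3 had 103, 79.6 and 95.2 CPM in P7_Ctl, against 0.116, 0.269, 55.6 and 37.5 CPM in P1_Ctl. The value of P1_Ctl library 1 rests on 3 counts, and libraries 3 and 4 lay far above libraries 1 and 2. Angptl4, a secreted inhibitor of lipoprotein lipase, had 155, 130 and 134 CPM in P7_Ctl and 5.43, 6.19, 146 and 155 CPM in P1_Ctl. For Angptl4, P1_Ctl libraries 3 and 4 lay in or near the P7_Ctl range. Fbp2, the muscle fructose bisphosphatase, had 15.7, 17.4 and 16.2 CPM in P7_Ctl, against 0.0388, 0.0385, 4.03 and 4.01 CPM in P1_Ctl. Its values in P1_Ctl libraries 1 and 2 lie under the limit of 3 counts, 0.116 and 0.115 CPM there. None of these 3 genes was called, with edgeR adjusted p of 0.30 for Ucp3, 0.62 for Angptl4 and 0.057 for Fbp2. The Ucp3 promoter window, at chr7:100472741-100473040 (plus strand, GRCm38.p6, RefSeq), is shown because its gene varied most, with capitals on AGGTCA, the core site bound by PPAR and related receptors, searched on both strands.
Ucp3: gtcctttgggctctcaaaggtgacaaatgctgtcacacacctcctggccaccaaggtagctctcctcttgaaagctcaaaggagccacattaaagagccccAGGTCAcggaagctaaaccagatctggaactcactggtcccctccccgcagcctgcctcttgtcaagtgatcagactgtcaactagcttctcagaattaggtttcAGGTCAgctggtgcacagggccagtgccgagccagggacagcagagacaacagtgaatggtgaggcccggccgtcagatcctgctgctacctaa
It held 2 matches. Such a match was found in 8 of 32 windows of 28 genes of the fatty acid list and in 16.3% of all 32851 windows.

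Ketone use went the other way for 1 gene. Bdh1, the mitochondrial beta-hydroxybutyrate dehydrogenase, had 0.584, 0.123 and 0.837 CPM in P7_Ctl, against 14, 12.7, 6.52 and 6.56 CPM in P1_Ctl. It fell by 4.26 ± 0.53 on the log2 scale (edgeR, adjusted p = 0.0015), 1 of the 10 largest falls, and the call held with any 1 library left out. Its value in P7_Ctl library 2 lies at the limit of 3 counts, so the size of the fall is uncertain. Oxct1, which activates ketone bodies for oxidation, had 241, 221 and 277 CPM in P7_Ctl and 466, 479, 199 and 278 CPM in P1_Ctl, overlapped, and was not called. Markers of fat cells moved with the fatty acid genes in part: the summed level of 10 adipocyte genes, of which 2 passed the count filter, was 291, 351 and 332 CPM in P7_Ctl and 182, 184, 468 and 341 CPM in P1_Ctl. The defining markers Adipoq and Plin1 stood at most at 0.449 and 1.92 CPM, both in P7_Ctl library 2, and Retn was at 0 in the 7 libraries. The part of fat cells in the fatty acid values was not tested.

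Regulators of this programme did not share one direction. Rxrg, a retinoid X receptor that pairs with PPARs, was among the 10 largest rises, with 23.1, 22.8 and 23.3 CPM in P7_Ctl, against 2.02, 2, 3.06 and 2.94 CPM in P1_Ctl (log2 fold change 3.20 ± 0.17, edgeR adjusted p = 8.2e-05). Mlxipl, a glucose-responsive transcription factor, rose by 1.20 ± 0.13 (adjusted p = 0.0008). Klf15, a glucocorticoid-induced factor of metabolism, fell by 1.57 ± 0.32 (adjusted p = 0.013), with 15.9, 16.4 and 11.9 CPM in P7_Ctl and 54.6, 42.9, 57.3 and 20.7 CPM in P1_Ctl. That call ended without any 1 of the P7_Ctl libraries (adjusted p up to 0.066), and those of Rxrg and Mlxipl held. Ppara, Ppargc1a and Esrra were not called, and Esrra had 139, 138 and 134 CPM in P7_Ctl and 117, 117, 185 and 143 CPM in P1_Ctl. Over the 16 regulators 2 rose and 4 fell (37.5% called), with a median of -0.07 and an SD at birth of 0.131. Without P7_Ctl library 2 or 3 the number called was 3.

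Glycolysis and glucose transport fell. Of 27 genes 15 were called lower and 2 higher in P7_Ctl (63.0% called), with a median of -0.53. The list stood at 7.51, 7.42 and 7.49 in P7_Ctl, against 8.25, 8.35, 7.76 and 7.92 in P1_Ctl (SD 0.0492 and 0.279). The groups did not overlap, and P1_Ctl libraries 3 and 4 were the nearer ones. Slc2a1, the glucose transporter GLUT1 of the fetal heart, had 12.3, 12.5 and 11.4 CPM in P7_Ctl, against 129, 146, 39.8 and 36.4 CPM in P1_Ctl. It fell by 2.87 ± 0.54 on the log2 scale (edgeR, adjusted p = 0.0088). Slc16a3, a lactate exporter, had 8.76, 8.91 and 9.29 CPM in P7_Ctl and 132, 155, 17.8 and 30.7 CPM in P1_Ctl, and fell by 3.22 ± 0.75 (adjusted p = 0.022). Both carriers fell against each of the 4 newborn libraries, and more against libraries 1 and 2. Hk1, the hexokinase of fetal heart, was even at birth, with 308, 309 and 335 CPM in P7_Ctl and 673, 676, 611 and 530 CPM in P1_Ctl, and fell by 0.97 ± 0.10 (adjusted p = 0.00069). Aldoc, an aldolase isoform, fell by 2.71 ± 0.22 (adjusted p = 0.00026), while Hk2, the hexokinase of adult muscle, had 133, 118 and 124 CPM in P7_Ctl and 126, 165, 78.2 and 70.8 CPM in P1_Ctl and was not called. Across fits without 1 library, 9 to 21 of the 27 were called, fewest without P7_Ctl library 2 and most without P1_Ctl library 3. The call of Slc16a3 ended without any 1 P7_Ctl library, with adjusted p up to 0.091.

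Of 16 hypoxia-induced genes 0 rose and 5 fell (31.2%, against 18.0% over all genes), with a median of -0.45. The number called was 3 without P7_Ctl library 1 or 2 and 8 without P1_Ctl library 3. Without P1_Ctl libraries 3 and 4, 11 were called lower, in a fit that called 43.0% of all genes. The 16 genes stood at 5.11, 5.19 and 5.21 in P7_Ctl and 5.73, 6.13, 5.41 and 5.45 in P1_Ctl (SD 0.329). Bnip3, a mitophagy receptor, had 20.4, 24.2 and 22.9 CPM in P7_Ctl, against 61.6, 76.4, 53.8 and 40.1 CPM in P1_Ctl, and fell by 1.37 ± 0.20 (edgeR, adjusted p = 0.0031). Pdk1, which holds pyruvate back from oxidation in the mitochondrion, fell by 0.93 ± 0.12 (adjusted p = 0.0022). Hif3a, a regulator of the hypoxia response, had 7.26, 9.03 and 5.19 CPM in P7_Ctl, against 201, 214, 161 and 69.6 CPM in P1_Ctl, and fell by 4.49 ± 0.43 (adjusted p = 0.00049). Vegfa, the vascular growth factor, had 316, 334 and 305 CPM in P7_Ctl and 280, 336, 272 and 272 CPM in P1_Ctl and was not called. The calls of Bnip3, Pdk1 and Hif3a held with any 1 library left out.

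The lists of respiratory complex I and of complexes III and V moved by little. The newborn libraries differed little in both, and the share called was near or under the 18.0% of all genes. Over 35 complex I genes 6 rose and 0 fell (17.1% called), with a median of 0.18 and an SD at birth of 0.0781, and over 24 genes of complexes III and V 3 rose and 0 fell (12.5%), with a median of 0.15 and an SD of 0.0743. Without P7_Ctl library 1 the number called was 0 in both lists. Of the 28 citric acid cycle genes 3 rose and 3 fell (21.4% called), with an SD at birth of 0.0469. The number called was 3 without any 1 P7_Ctl library. Among those that rose was Ogdh, a subunit of the oxoglutarate dehydrogenase complex, with a rise of 0.69 ± 0.09 (edgeR, adjusted p = 0.0021). Of 30 mitochondrial ribosomal protein genes 0 rose and 5 fell (16.7%), with a median of -0.11 and an SD at birth of 0.0397, and 0 were called without P7_Ctl library 1 or 2. Cytochrome oxidase isoforms differed in sign. Cox6a1 and Cox8a, the isoforms found in most tissues, fell by 0.85 ± 0.08 and by 0.62 ± 0.09 (adjusted p = 0.0006 and 0.0037). Cox8b, the heart and muscle isoform, had 256, 217 and 226 CPM in P7_Ctl and 152, 143, 146 and 200 CPM in P1_Ctl, a rise of 0.54 ± 0.13 (adjusted p = 0.022), a call that ended without P1_Ctl library 1 or 2 or any P7_Ctl library (adjusted p up to 0.097). Cox6a2, Cox7a1 and Cox7a2 were not called, with log2 fold changes of 0.17, 0.31 and -0.11.

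Genes encoded in the mitochondrial genome took 15.5% ± 0.342 of the counts in P7_Ctl and 12.1% ± 1.28 in P1_Ctl (SD, n = 3 and 4). The difference was 3.48 percentage points with no overlap, and an exact two-sided permutation test gave p = 0.0571, the smallest that 3 against 4 libraries allow. Of the 13 protein-coding genes 6 rose and 0 fell (46.2% called), with a median of 0.66 and an SD at birth of 0.275. The number called was 3 without P7_Ctl library 1 or 3. The complex I subunit mt-Nd5 had 21260, 19865 and 18820 CPM in P7_Ctl, against 11591, 8894, 11671 and 12555 CPM in P1_Ctl, a rise of 0.84 ± 0.12 (edgeR, adjusted p = 0.0027), which held with any 1 library left out. Another complex I subunit, mt-Nd1, had 22814, 20797 and 21258 CPM in P7_Ctl and 24233, 19884, 24366 and 25280 CPM in P1_Ctl and was not called, so the 13 genes did not move as one. Single libraries stood out for 2 further genes: mt-Atp8 had 26.5 CPM in P7_Ctl library 3, against 2.29 and 2.12 CPM in P7_Ctl libraries 1 and 2, and its call ended without that library or any 1 P1_Ctl library (adjusted p up to 0.24). For mt-Co2, chosen after its values were seen, they were 36, 769 and 32.8 CPM in P7_Ctl and 35.4, 23.6, 30.4 and 291 CPM in P1_Ctl. Reads of mitochondrial genes can match nuclear copies or an overlapping neighbour, so their counts are uncertain.

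Genes of energy transfer inside the muscle cell rose and fell in equal number, 3 of 9 each (66.7% called), with an SD at birth of 0.0418. Ckmt2, the mitochondrial creatine kinase of muscle, had 587, 501 and 562 CPM in P7_Ctl, against 207, 230, 255 and 296 CPM in P1_Ctl, and rose by 1.15 ± 0.12 (edgeR, adjusted p = 0.00081). Mb, myoglobin, had 3253, 3423 and 3589 CPM in P7_Ctl and 1285, 1533, 1677 and 2052 CPM in P1_Ctl, a rise of 1.06 ± 0.14 (adjusted p = 0.0021). Ckm, the cytosolic muscle creatine kinase, fell by 0.48 ± 0.08 (adjusted p = 0.0058), and Ckb, the brain-type form, fell by 0.96 ± 0.23 (adjusted p = 0.023). The last of these calls ended without P1_Ctl library 2 or any 1 P7_Ctl library (adjusted p up to 0.10), and the other 3 held.

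In the sarcomere the myosin pair showed the largest change. Myh7, the beta myosin heavy chain of the fetal ventricle, had 307, 374 and 260 CPM in P7_Ctl, against 8842, 9637, 3194 and 6523 CPM in P1_Ctl. It fell by 4.49 ± 0.40 on the log2 scale (edgeR, adjusted p = 0.00037), with P1_Ctl library 3 the lowest of the newborn libraries. Myh6, the alpha chain of the adult mouse ventricle, had 19543, 22620 and 20550 CPM in P7_Ctl and 11179, 12170, 18017 and 13339 CPM in P1_Ctl, a rise of 0.61 ± 0.16 (adjusted p = 0.029). P1_Ctl library 3 was thus the newborn library nearest to day 7 for both chains. The 2 transcripts are similar in sequence, and how reads matching both were counted is not given in the labels. The call of Myh6 ended without any 1 library other than P1_Ctl library 3 (adjusted p up to 0.12), and that of Myh7 held.

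The troponin I pair moved in part. Tnni1, a slow muscle troponin I that the fetal heart uses, had 1053, 1010 and 890 CPM in P7_Ctl, against 2159, 2239, 1697 and 2226 CPM in P1_Ctl, and fell by 1.08 ± 0.12 (edgeR, adjusted p = 0.00085), a call that ended with all 27 libraries in the fit (adjusted p = 0.066). Tnni3, the cardiac form, had 2006, 2127 and 2191 CPM in P7_Ctl and 1422, 1731, 1702 and 1904 CPM in P1_Ctl, and its log2 fold change of 0.32 ± 0.10 missed the threshold (adjusted p = 0.06). Among 30 genes of titin, the M-band and the Z-disc 6 rose and 3 fell (30.0% called), with a median of 0.02 and an SD at birth of 0.0875. The number called was 3 without P7_Ctl library 1 or 3 and 14 without P1_Ctl library 3. Xirp2, an actin-binding protein of the intercalated disc, had 96.8, 103 and 88.2 CPM in P7_Ctl, against 11.2, 12.8, 20.8 and 17.5 CPM in P1_Ctl, a rise of 2.62 ± 0.20 (adjusted p = 0.00022). Tcap, the titin cap protein, had 214, 230 and 210 CPM in P7_Ctl and 99.5, 99.9, 105 and 125 CPM in P1_Ctl, a rise of 1.02 ± 0.09 (adjusted p = 0.00046). Ttn itself, Myom1 and Myom2 were not called. Cnn1, a calponin of smooth muscle, and Myl9, the smooth muscle regulatory light chain, fell by 1.81 ± 0.27 and by 1.02 ± 0.16 (adjusted p = 0.0035 and 0.0044), and Tpm1, the main tropomyosin of the heart, rose by 0.56 ± 0.09 (adjusted p = 0.0047). The SD at birth was 0.249 for 15 myosin chains, 0.165 for 7 troponins and 0.199 for 10 muscle actins and tropomyosins, and each of these 3 lists overlapped between the ages. The calls of Tnni1, Xirp2, Tcap, Cnn1, Myl9 and Tpm1 held with any 1 library left out.

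Potassium channel genes were called higher or not called, and their mean level was close among the newborn libraries. Of 21 potassium channel genes 7 rose and 0 fell (33.3% called), with a median of 0.30. The list stood at 5.4, 5.42 and 5.39 in P7_Ctl, against 5.04, 5.01, 5.15 and 5.07 in P1_Ctl (SD 0.0156 and 0.059). Single members spread more, with a median SD at birth of 0.286, against 0.211 over all genes. Kcnj2, the channel of the inward rectifier current, had 45.8, 44.9 and 41.3 CPM in P7_Ctl and 15, 15.6, 26.1 and 19.9 CPM in P1_Ctl, a rise of 1.20 ± 0.18 (edgeR, adjusted p = 0.0035). Of 15 sodium, pacemaker and T-type channel genes 4 rose and 2 fell (40.0% called), with a median of 0.21 and an SD at birth of 0.144. The median SD of a member was 0.38. Hcn2 and Hcn4 encode pacemaker channels. Hcn2 had 60.3, 45 and 52.5 CPM in P7_Ctl, against 6.71, 6.15, 10.3 and 10.5 CPM in P1_Ctl, and rose by 2.65 ± 0.20 (adjusted p = 0.00022). Hcn4 had 12.8, 18.8 and 17.4 CPM in P7_Ctl, against 26.5, 25.6, 22.1 and 26.5 CPM in P1_Ctl, and fell by 0.62 ± 0.14 (adjusted p = 0.018), lowest in the P7_Ctl library that was low in atrial genes. Cacna1h, a T-type calcium channel, fell by 0.97 ± 0.10 (adjusted p = 0.00077), a call that ended with all 14 control libraries in the fit (adjusted p = 0.14) and with all 27 libraries (adjusted p = 0.29). With 1 library left out 6 to 10 of the potassium channel genes were called, most without P1_Ctl library 3. The call of Hcn4 ended without P7_Ctl library 1 or 3 (adjusted p up to 0.057).

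Of 24 genes of calcium cycling and the dyad, where L-type channels face the calcium store, 8 rose and 3 fell (45.8% called). Their median was 0.18 and their SD at birth 0.0822. Slc8a1, the sodium-calcium exchanger, had 460, 476 and 462 CPM in P7_Ctl, against 1100, 1030, 847 and 946 CPM in P1_Ctl, and fell by 1.07 ± 0.10 (edgeR, adjusted p = 0.00039). Bin1, a membrane protein of transverse tubules, and Camk2b, a calcium-calmodulin kinase, rose by 0.85 ± 0.15 and by 1.27 ± 0.23 (adjusted p = 0.006 and 0.0076). The calcium pump Atp2a2 had 8613, 7630 and 7476 CPM in P7_Ctl and 6502, 5840, 8513 and 6644 CPM in P1_Ctl and was not called, nor was the release channel Ryr2. At the intercalated disc, 16 genes with an SD of 0.0894 at birth, Gja5, a connexin of atria and conduction tissue, fell by 0.99 ± 0.13 (adjusted p = 0.0018), and Gja1, the main ventricular connexin, had 603, 571 and 537 CPM in P7_Ctl and 601, 561, 357 and 651 CPM in P1_Ctl and was not called. These 4 calls held with any 1 library left out.

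**Figure D4:**
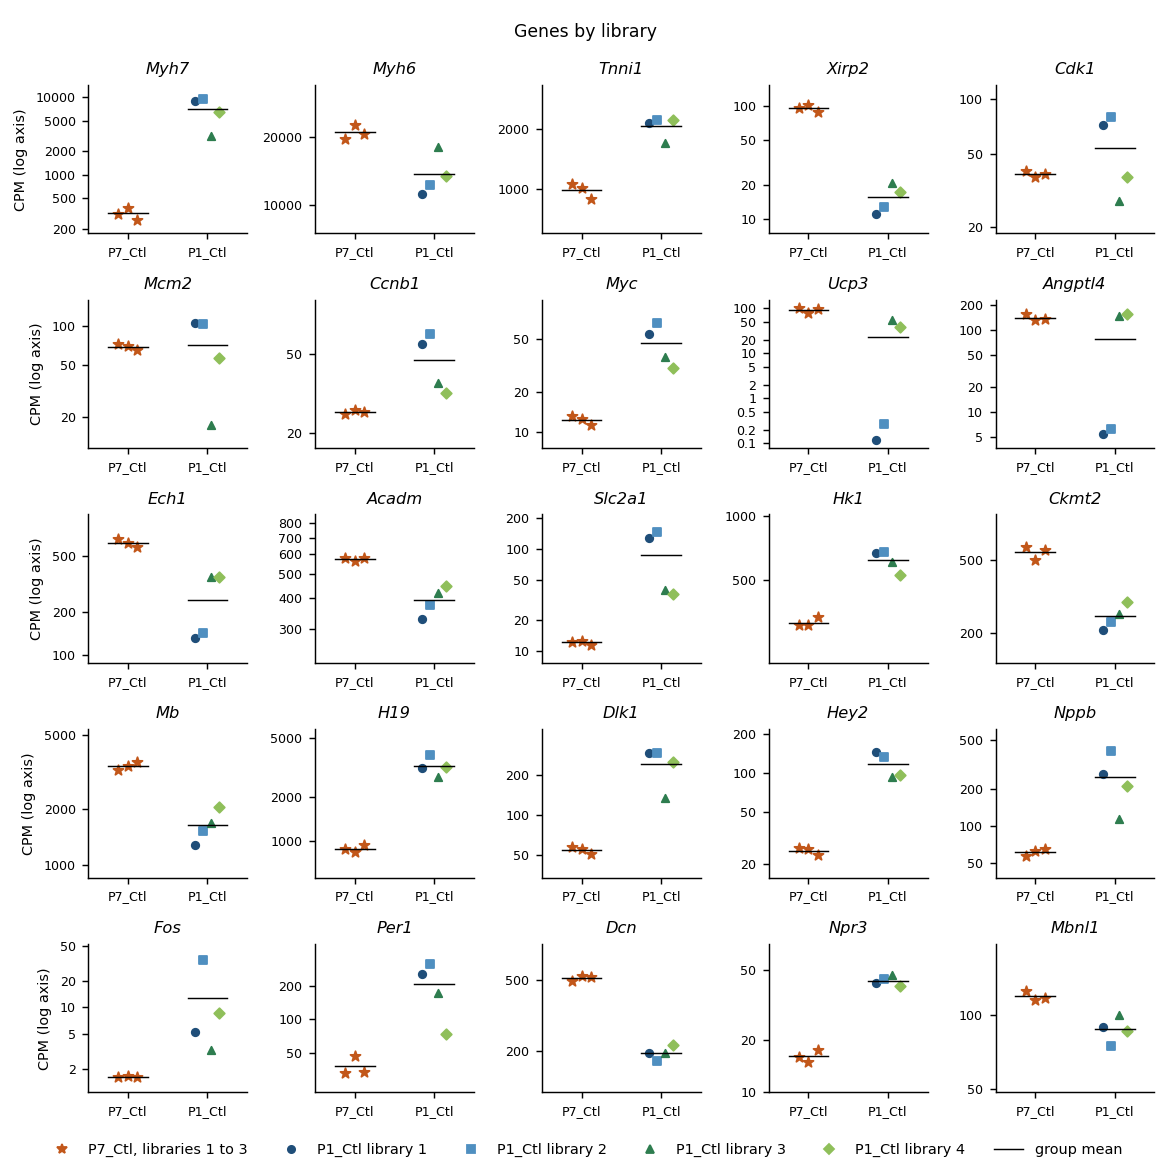
CPM of 25 genes in every library on log axes, P7_Ctl on the left and P1_Ctl on the right of each panel, with a line at the group mean. Stars are the 3 P7_Ctl libraries, and the 4 markers on the right are P1_Ctl libraries 1 to 4. Myh7, Xirp2, Hk1, Ckmt2, H19, Hey2, Dcn and Npr3 have newborn libraries that stand well clear of day 7. Cdk1, Mcm2, Ucp3 and Angptl4 have newborn libraries in a high and a low pair.

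Growth genes of the fetus fell as a list. Of 20 oncofetal and imprinted growth genes 14 fell and 0 rose (70.0% called), with a median of -1.21. The list stood at 5.35, 5.27 and 5.25 in P7_Ctl, against 6.57, 6.62, 6.08 and 6.21 in P1_Ctl (SD 0.051 and 0.267). The difference of -1.08 was larger than the newborn range of 0.54. H19, an imprinted RNA with no known protein, had 882, 845 and 935 CPM in P7_Ctl, against 3139, 3836, 2734 and 3210 CPM in P1_Ctl, and fell by 1.86 ± 0.12 (edgeR, adjusted p = 0.00013). Igf2, the fetal insulin-like growth factor next to it, had 48.8, 49.8 and 46.1 CPM in P7_Ctl and 160, 222, 93.9 and 120 CPM in P1_Ctl, and fell by 1.63 ± 0.26 (adjusted p = 0.0048). Dlk1, an imprinted Notch-like membrane protein, had 57.1, 55.1 and 50.3 CPM in P7_Ctl and 296, 292, 135 and 253 CPM in P1_Ctl, and fell by 2.17 ± 0.26 (adjusted p = 0.0013). For Igf2 and Dlk1 the lowest newborn value was that of P1_Ctl library 3. Igf2bp1 and Igf2bp3, which bind the Igf2 message, fell by 2.64 ± 0.34 and by 1.37 ± 0.14 (adjusted p = 0.0019 and 0.00067). Leaving out single libraries, 12 to 17 of the 20 were called, and the calls of these 5 genes held.

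Growth factor receptors and the machinery of translation were lower too. Erbb2 and Igf1r, receptors for neuregulin and insulin-like growth factor signals, fell by 0.80 ± 0.14 and by 0.68 ± 0.11 (edgeR, adjusted p = 0.0074 and 0.0043). Ccn2, a matrix-associated YAP target, had 34.5, 47.2 and 43.3 CPM in P7_Ctl, against 526, 857, 114 and 246 CPM in P1_Ctl, and fell by 3.39 ± 0.64 (adjusted p = 0.009), a call that ended without P7_Ctl library 1 (adjusted p = 0.053). Of 17 growth signal and YAP target genes 1 rose and 5 fell (35.3% called), with an SD at birth of 0.241 and 2 called without P7_Ctl library 1. Of 40 cytosolic ribosomal protein genes 17 fell and 1 rose, with a median of -0.23 and an SD at birth of 0.0803. The 1 that rose was Rpl3l, the striated muscle paralog of Rpl3, with 14.6, 13.1 and 15 CPM in P7_Ctl, against 2.13, 3.19, 5.93 and 4.61 CPM in P1_Ctl (log2 fold change 1.84 ± 0.29, adjusted p = 0.0043). Without P7_Ctl library 2, 5 of the 40 were called, and without P1_Ctl library 3, 21. Ribosomal protein genes have many near-identical copies in the genome, so their counts are uncertain. Of 16 ribosome biogenesis genes 5 fell and 0 rose (31.2% called), with a median of -0.27 and an SD at birth of 0.0614. Without any 1 P7_Ctl library the number called was 1.

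Transcription factors of heart development fell with little spread at birth. Of 19 tested 9 fell and 1 rose (52.6% called), with a median of -0.41. The list stood at 6.15, 6.13 and 6.08 in P7_Ctl, against 6.66, 6.70, 6.60 and 6.59 in P1_Ctl (SD 0.0348 and 0.0534). Hey2, a Notch-regulated repressor of the compact ventricular wall, had 26.4, 26 and 23.5 CPM in P7_Ctl, against 145, 134, 92.9 and 96.5 CPM in P1_Ctl, and fell by 2.21 ± 0.17 (edgeR, adjusted p = 0.00024). Nkx2-5, a core cardiac homeobox factor, had 215, 197 and 206 CPM in P7_Ctl and 291, 308, 322 and 308 CPM in P1_Ctl, and fell by 0.58 ± 0.07 (adjusted p = 0.0013). Hand2 and Tbx18 fell by 0.75 ± 0.08 and by 0.76 ± 0.10 (adjusted p = 0.00068 and 0.0021). Gata4 and Tbx5 were not called, with log2 fold changes of -0.10 and -0.29. Across fits without 1 library, 8 to 11 of the 19 were called, and the calls of these 4 genes held.

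Natriuretic peptide genes, markers of strain and of fetal and atrial muscle, were lower at day 7. Nppb had 56.5, 62.5 and 64.5 CPM in P7_Ctl, against 266, 407, 114 and 211 CPM in P1_Ctl, and fell by 2.03 ± 0.37 (edgeR, adjusted p = 0.0075). Nppa had 46.3, 88.9 and 177 CPM in P7_Ctl and 268, 310, 355 and 297 CPM in P1_Ctl, and fell by 1.56 ± 0.38 (adjusted p = 0.025) that was not called without P7_Ctl library 2 (adjusted p = 0.11). The lowest Nppa value stood in P7_Ctl library 1, which was also the lowest of the 7 for the atrial genes Myl7, Myl4 and Sln, and the part of atrial tissue in the fall was not tested. Of 8 genes tested 1 rose and 4 fell (62.5% called), and 2 were called without P7_Ctl library 2. The SD at birth was 0.0469, although Nppb alone ran from 114 to 407 CPM among the newborn libraries.

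Immediate early genes, which are induced within minutes of a stimulus, were low and even at day 7 and scattered at birth. The 18 genes stood at 3.84, 3.88 and 3.88 in P7_Ctl, against 5.05, 6.14, 4.09 and 4.76 in P1_Ctl (SD 0.0256 and 0.853). Library 2 was the highest newborn library and library 3 the lowest, in the same order as for the mitosis genes, but here all 4 lay above P7_Ctl. Fos had 1.63, 1.68 and 1.63 CPM in P7_Ctl, against 5.24, 34.7, 3.30 and 8.58 CPM in P1_Ctl, and Nr4a1, an orphan nuclear receptor, had 18, 21 and 18.6 CPM in P7_Ctl and 164, 460, 26.8 and 55.5 CPM in P1_Ctl. Fos fell by 2.97 ± 0.83 and Nr4a1 fell by 3.20 ± 0.90 (edgeR, adjusted p = 0.039 and 0.041). Of the 18 genes 6 fell and 0 rose (33.3%, against 18.0% over all genes). Without P1_Ctl libraries 3 and 4, 13 were called lower, in a fit that called 43.0% of all genes. With 1 library left out 1 to 13 of the 18 were called, 1 without any P7_Ctl library and 13 without P1_Ctl library 3. The calls of both genes ended without any 1 P7_Ctl library, that of Fos also without P1_Ctl library 4 and that of Nr4a1 without P1_Ctl library 1 or 2, with adjusted p up to 0.14.

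Genes that glucocorticoids induce were lower at day 7, and here P1_Ctl library 3 was the highest. The 14 genes stood at 4.97, 4.80 and 4.80 in P7_Ctl, against 5.16, 5.36, 5.96 and 5.16 in P1_Ctl (SD 0.0973 and 0.38). Among them 6 were called lower and 0 higher (42.9% called). Per1, a clock gene with a glucocorticoid-responsive promoter, had 33.4, 46.8 and 34.1 CPM in P7_Ctl, against 256, 314, 173 and 74.6 CPM in P1_Ctl, and fell by 2.42 ± 0.44 (edgeR, adjusted p = 0.0076). Mt1, a metallothionein, had 71.5, 55.7 and 67.6 CPM in P7_Ctl and 143, 149, 241 and 132 CPM in P1_Ctl, and fell by 1.35 ± 0.21 (adjusted p = 0.0043), and the kinase Sgk1 fell by 1.43 ± 0.27 (adjusted p = 0.0089). Fkbp5, a chaperone of the receptor, had 16.9, 15.2 and 15.9 CPM in P7_Ctl and 46.4, 47.4, 72.2 and 21.5 CPM in P1_Ctl, and fell by 1.55 ± 0.34 (adjusted p = 0.017) that ended without any 1 P7_Ctl library (adjusted p up to 0.076). P1_Ctl library 4 held the lowest newborn value of Per1, Sgk1, Mt1 and Fkbp5. Of the receptors, Nr3c1, the glucocorticoid receptor, had 102, 103 and 101 CPM in P7_Ctl and 59.7, 64.9, 65.2 and 71 CPM in P1_Ctl, a rise of 0.64 ± 0.07 (adjusted p = 0.0011). Thrb, a thyroid hormone receptor, had 8.01, 7.52 and 6.78 CPM in P7_Ctl and 1.59, 1.31, 3.49 and 1.71 CPM in P1_Ctl, a rise of 1.87 ± 0.31 (adjusted p = 0.005), while Thra was not called. The time of day of tissue collection was not given in the sources used here. Of 15 clock genes 5 rose and 1 fell (40.0% called), with an SD at birth of 0.17 and 3 called without P7_Ctl library 1 or 2. Among those that rose was Nr1d2, a nuclear receptor of the clock, with a rise of 0.67 ± 0.08 (adjusted p = 0.0014).

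Mbnl1 had 125, 115 and 117 CPM in P7_Ctl, against 89.1, 74.8, 99.6 and 85.6 CPM in P1_Ctl. The log2 fold change of 0.44 ± 0.10 was called (edgeR, adjusted p = 0.017), but not without any 1 P7_Ctl library (adjusted p up to 0.078). Its relative Mbnl2 had 183, 178 and 172 CPM in P7_Ctl and 166, 167, 173 and 156 CPM in P1_Ctl, and Mbnl3 had 3.13, 1.68 and 3.14 CPM in P7_Ctl and 4.38, 2.77, 1.71 and 2.22 CPM in P1_Ctl, and neither was called. Rbfox1, a splicing factor of muscle and brain, had 37.6, 35.1 and 32.4 CPM in P7_Ctl, against 11.1, 10.9, 19.2 and 16.2 CPM in P1_Ctl, and rose by 1.29 ± 0.20 (adjusted p = 0.0037). Rbpms2, an RNA-binding protein of heart muscle, fell by 0.64 ± 0.07 (adjusted p = 0.0008), and Rbm20, the splicing factor of titin, was not called. The calls of Rbfox1 and Rbpms2 held with any 1 library left out. Over 19 muscle splicing factors 1 rose and 3 fell (21.1%, against 18.0% over all genes), with a median of -0.02. Their SD at birth was 0.0922, and 2 were called without P7_Ctl library 2 or 3. The 5 MBNL and CELF genes had an SD at birth of 0.137.

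Fibroblast genes rose, and their mean level was even among the newborn libraries although single members were not. Of 15 markers 10 rose and 1 fell (73.3% called), with a median of 0.88. The list stood at 6.84, 6.88 and 6.86 in P7_Ctl, against 6.11, 6.05, 6.0 and 6.14 in P1_Ctl (SD 0.0176 and 0.061). The summed level was 6201, 7037 and 6849 CPM in P7_Ctl and 4253, 4267, 2982 and 4191 CPM in P1_Ctl, lowest in P1_Ctl library 3. The median SD of a member at birth was 0.261, against 0.211 over all genes. Dcn, the collagen-binding proteoglycan decorin, had 491, 524 and 515 CPM in P7_Ctl, against 196, 178, 197 and 218 CPM in P1_Ctl, and rose by 1.37 ± 0.08 (edgeR, adjusted p = 0.00012). Pi16, a marker of adventitial fibroblasts, had 38, 41 and 39.6 CPM in P7_Ctl and 5.20, 4.11, 12.2 and 11.2 CPM in P1_Ctl, a rise of 2.27 ± 0.34 (adjusted p = 0.0035). Tcf21, a transcription factor of the fibroblast lineage, had 31.7, 32.1 and 35.5 CPM in P7_Ctl and 28.2, 31.7, 40.2 and 38.4 CPM in P1_Ctl and was not called. In bulk tissue, more cells of a type and more RNA per cell cannot be told apart. Leaving out single libraries, 10 to 13 of the 15 were called, and the calls of Dcn and Pi16 held.

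Of 20 collagens 10 rose and 1 fell (55.0% called), with a median of 0.49, and here P1_Ctl library 3 was low. The list stood at 7.07, 7.23 and 7.14 in P7_Ctl, against 6.89, 6.75, 6.29 and 6.91 in P1_Ctl (SD 0.0818 and 0.289). Col3a1, a fibrillar collagen, had 2370, 2870 and 2803 CPM in P7_Ctl and 1308, 1414, 958 and 1384 CPM in P1_Ctl, a rise of 1.08 ± 0.14 (edgeR, adjusted p = 0.0018). Col15a1, a basement membrane collagen, had 637, 599 and 585 CPM in P7_Ctl and 284, 257, 129 and 246 CPM in P1_Ctl, a rise of 1.41 ± 0.23 (adjusted p = 0.0048). For Col1a1 the values were 2017, 2348 and 2243 CPM in P7_Ctl and 1762, 1723, 944 and 1616 CPM in P1_Ctl, and the gene was not called. Of 37 other matrix genes 17 rose and 4 fell (56.8% called), with a median of 0.38 and an SD at birth of 0.137. Without P7_Ctl library 2 the number called was 11. Mfap4, a microfibril-associated protein, had 189, 193 and 220 CPM in P7_Ctl and 63.5, 48.9, 51.5 and 71.4 CPM in P1_Ctl, a rise of 1.77 ± 0.14 (adjusted p = 0.00022). Fn1 and Postn, proteins of newly laid matrix, were not called. Across fits without 1 library, 5 to 14 collagens were called, fewest without P7_Ctl library 2 and most without P1_Ctl library 3, and the calls of Col3a1, Col15a1 and Mfap4 held.

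Vessel and valve genes split by type. Of 13 smooth muscle and pericyte genes 7 rose and 0 fell (53.8% called), with a median of 0.46 and an SD at birth of 0.115. Their summed level overlapped between the ages, at 4430, 4067 and 4196 CPM in P7_Ctl and 3790, 3915, 3769 and 4502 CPM in P1_Ctl. The smooth muscle genes Cnn1 and Myl9, counted above with the actin and myosin lists, fell. Rgs5, a pericyte regulator of G protein signals, had 474, 483 and 456 CPM in P7_Ctl, against 126, 122, 188 and 182 CPM in P1_Ctl, and rose by 1.61 ± 0.16 (edgeR, adjusted p = 0.00068), while the contractile actin Acta2 was not called. Endothelial genes rose by less, with 6 of 21 higher, 2 lower (38.1% called) and a median of 0.28. The number called was 5 without P7_Ctl library 1 and 15 without P1_Ctl library 3. The 2 newborn pairs differed there, at 7.03, 6.98 and 6.98 in P7_Ctl and 6.62, 6.55, 6.92 and 6.79 in P1_Ctl (SD 0.165). Cdh5, the cadherin of endothelial junctions, rose by 0.50 ± 0.09 (adjusted p = 0.0068), and Vwf, von Willebrand factor, fell by 0.68 ± 0.07 (adjusted p = 0.0009). The 6 endocardium and valve genes were all called lower, with 4.51, 4.55 and 4.61 in P7_Ctl and 5.45, 5.41, 5.50 and 5.46 in P1_Ctl (SD 0.0526 and 0.0366). Npr3, a natriuretic peptide receptor of the endocardium, had 15.9, 15 and 17.5 CPM in P7_Ctl and 42.1, 44.5, 46.9 and 40.6 CPM in P1_Ctl, and fell by 1.43 ± 0.09 (adjusted p = 0.00012), and Plvap fell by 1.49 ± 0.10 (adjusted p = 0.00013). Without any 1 P7_Ctl library 3 of the 6 were called, and the calls of Rgs5, Cdh5, Vwf, Npr3 and Plvap held.

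Blood and immune cell genes were near the limit of detection in many cases, so levels are given without counts over the lists. The summed level of 20 macrophage genes was 175, 182 and 215 CPM in P7_Ctl and 138, 144, 229 and 187 CPM in P1_Ctl. Csf1r, the receptor that macrophages need, had 28.3, 29.7 and 33.7 CPM in P7_Ctl, against 16.1, 18.3, 19.4 and 22.7 CPM in P1_Ctl, and rose by 0.67 ± 0.12 (edgeR, adjusted p = 0.0078). Lyve1, a receptor of lymphatic vessels and resident macrophages, had 5.42, 6.37 and 7.79 CPM in P7_Ctl and 19.4, 18.2, 43.2 and 15.6 CPM in P1_Ctl, and fell by 1.88 ± 0.37 (adjusted p = 0.01) that ended without P7_Ctl library 1 or 2 (adjusted p up to 0.056). S100a8, an antimicrobial protein of neutrophils, had 0.209, 0.245 and 0.251 CPM in P7_Ctl and 1.75, 1, 2.72 and 1.35 CPM in P1_Ctl, and fell by 2.83 ± 0.43 (adjusted p = 0.0037). Globin genes took 0.176% ± 0.0231 of the counts in P7_Ctl and 0.122% ± 0.0222 in P1_Ctl (SD, n = 3 and 4), with p = 0.0571 in the exact permutation test, again the smallest possible. The summed level of 17 erythroid genes was 2319, 1967 and 1792 CPM in P7_Ctl and 1196, 1586, 1142 and 1429 CPM in P1_Ctl.

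Complement and acute phase genes had the largest SD of any list at birth, 1.02, against 0.444 over P7_Ctl. The list stood at 1.79, 1.69 and 2.50 in P7_Ctl and 1.41, 1.29, 3.44 and 2.51 in P1_Ctl, and the groups overlapped. Serpina3n was chosen after its values were seen. The central complement protein C3 had 2.34, 4.13 and 10.5 CPM in P7_Ctl and 2.95, 8.81, 45.8 and 15.2 CPM in P1_Ctl, and Serpina3n, an acute phase protease inhibitor, had 2.79, 1.10 and 2.3 CPM in P7_Ctl and 0.659, 0.308, 23.4 and 8.66 CPM in P1_Ctl. P1_Ctl library 3 was the highest of the 7 for both, and neither was called. The liver genes noted above summed to 44.9 CPM in that library, against 126 CPM in P7_Ctl library 3. Among them Ahsg had 21 CPM and Alb 0 CPM in P1_Ctl library 3, against 24.2 and 55 CPM in P7_Ctl library 3. The part of liver transcripts in the C3 and Serpina3n values was not tested. Of 16 interferon response genes 2 rose and 4 fell (37.5% called), with 2 called without P7_Ctl library 1 or 2 and 11 without P1_Ctl library 3. The list stood at 1.7, 1.59 and 1.94 in P7_Ctl and 2.14, 2.73, 1.48 and 2.89 in P1_Ctl (SD 0.643), here with library 3 as the lowest newborn one. Of 16 p53 target genes 7 rose and 0 fell (43.8% called), with a median of 0.29 and an SD at birth of 0.108. Eda2r, a receptor of the tumour necrosis factor family, had 9.22, 11.3 and 10.5 CPM in P7_Ctl, against 3.37, 2.35, 1.94 and 2.50 CPM in P1_Ctl, and rose by 2.02 ± 0.19 (edgeR, adjusted p = 0.00051). With 1 library left out 2 to 8 p53 target genes were called, fewest without P7_Ctl library 2, and the call of Eda2r held. Of 18 chaperones of the endoplasmic reticulum, the list with the smallest SD at birth, 4 rose and 0 fell (22.2%, against 18.0% over all genes), and 0 were called without any 1 P7_Ctl library.

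The remaining largest changes belonged to several classes. Hmcn2, a basement membrane protein of the hemicentin family, had 24.2, 34.6 and 28.5 CPM in P7_Ctl, against 1.40, 0.769, 1.01 and 1.19 CPM in P1_Ctl, and rose by 4.73 ± 0.20 on the log2 scale (edgeR, adjusted p = 4e-05). Mapt, the microtubule-associated protein tau, had 37.5, 37.7 and 35.9 CPM in P7_Ctl and 2.06, 1.35, 2.09 and 3.02 CPM in P1_Ctl, a rise of 4.12 ± 0.21 (adjusted p = 8e-05). Tuba8, an alpha tubulin of muscle and testis, rose by 3.36 ± 0.18 (adjusted p = 8.2e-05), whereas Tubb2b, a tubulin of developing tissue, had 31.9, 37 and 37.8 CPM in P7_Ctl and 134, 132, 40.7 and 79 CPM in P1_Ctl, and fell by 1.44 ± 0.37 (adjusted p = 0.03). Lrrc15, a leucine-rich repeat membrane protein, and Vtn, vitronectin, rose by 3.50 ± 0.25 and by 2.68 ± 0.19 (adjusted p = 0.00018 each). Gipr, the receptor of a gut incretin, had 1.84, 2.21 and 3.06 CPM in P7_Ctl, against 98.1, 109, 28.9 and 19.5 CPM in P1_Ctl, and fell by 4.76 ± 0.72 (adjusted p = 0.0036). Oit3 and Ankrd63 fell by 4.04 ± 0.27 and by 3.58 ± 0.40 (adjusted p = 0.00015 and 0.00099). Of these genes the call of Tubb2b ended with a library left out, P1_Ctl library 1 or 2 or any P7_Ctl library (adjusted p up to 0.12), and the other calls held.

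**Figure D5:**
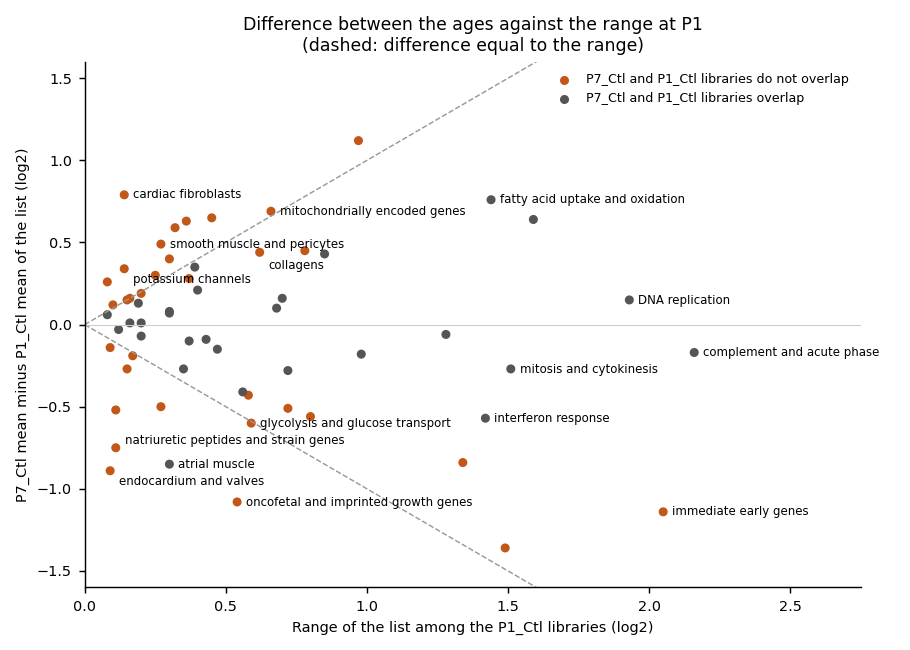
Difference between the P7_Ctl and P1_Ctl means of each of 61 lists against the range of the list among the P1_Ctl libraries, both in log2 units. Dashed lines mark a difference equal to the range, and orange points are the 33 lists whose libraries do not overlap between the ages. Cardiac fibroblast genes (difference 0.79, range 0.14) and endocardium genes (-0.89, 0.09) lie outside the lines, and DNA replication genes (0.15, 1.93) lie far inside them.

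Read by pathway, the difference between the ages was larger than the newborn range for cardiac fibroblast genes (0.79 against 0.14), endocardium (-0.89 against 0.09), natriuretic peptides and strain genes (-0.75 against 0.11), cardiac transcription factors (-0.52 against 0.11), potassium channels (0.34 against 0.14) and oncofetal growth genes (-1.08 against 0.54). It was smaller than the newborn range for DNA replication (0.15 against 1.93), mitosis (-0.27 against 1.51), fatty acid oxidation (0.76 against 1.44), immediate early genes (-1.14 against 2.05), collagens (0.44 against 0.62) and hypoxia-induced genes (-0.51 against 0.72). Glycolysis lay at the border, with -0.60 against 0.59. These are list means in log2 units, over members that are not replicates.

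The controls of day 60 give a later point for orientation, in CPM scaled over the 14 control libraries and with no test. They take together 4 libraries labelled 7d and 3 labelled 14d after knockout. Myh7 averaged 5640 CPM at day 1, 253 CPM at day 7 and 374 ± 137 CPM at day 60 (SD, n = 7). Tnni1 averaged 1670, 793 and 0.594 ± 0.409 CPM at days 1, 7 and 60. The division gene Cdk1 averaged 43.5, 31.5 and 1.47 ± 0.596 CPM, and H19 averaged 2590, 714 and 25.2 ± 5.11 CPM. Ech1 averaged 197, 500 and 1410 ± 154 CPM, and Mb averaged 1310, 2760 and 8530 ± 538 CPM. Slc2a1 averaged 70.3, 9.7 and 28 ± 5.84 CPM at the same ages.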

How the data were processed

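RNA sequencing measured gene expression in the heart ventricle of mice, in 3 P7_Ctl and 4 P1_Ctl libraries. The authors deposited raw read counts per gene for 27 libraries in 1 table of 55487 genes, of which 55141 were matched by identifier to GENCODE M21 (GRCm38). RNA was taken with TRIzol and a column kit and sequenced on a DNBseq instrument, per the labels. Salmon, STAR, featureCounts and DESeq2 are named in the submitters' processing notes, without roles, and the strand setting was not given in the sources used here, so reads of overlapping and antisense genes cannot be told apart. Groups follow the labels.

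The 7 libraries, with 24222016 to 25675115 counts each, were fitted together. After edgeR's expression filter (filterByExpr) left 16000 genes and TMM scaling, edgeR 4.0.16 (R 4.3.3, limma 3.58.1) gave quasi-likelihood tests with Benjamini-Hochberg adjustment over all genes tested, called at 0.05. The log2 fold change is P7_Ctl over P1_Ctl and SE is its size divided by the square root of F. List levels are means of log2 CPM with a prior count of 0.5. Shares were compared by exact permutation tests (scipy 1.17.1, Python 3.11.15). Limits for a count of 0 are 3 counts and cover counting error only. The test was tried on counts simulated with the same spread of a gene at both ages and without pairs among the P1_Ctl libraries. That trial therefore does not cover the wider and paired spread at birth.

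Genes named are the 10 largest rises and falls at 5 CPM or more with no overlap, the first 3 genes of each list, up to 3 further called genes a list, Mbnl1 to Mbnl3 and 5 isoform pairs, besides those said to be chosen after their values were seen. Not every gene the rule names is reported here, and those described were picked from them with their values known. Members and lists were chosen with earlier results of these data known. Alternatives were DESeq2 1.42.0, limma-voom, other scalings and filters, other libraries in the fit, a replicate block, a sex term and leaving out each library. Leaving out P1_Ctl libraries 3 and 4 together was chosen after seeing the data.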

Additional observations from a re-analysis of the deposited data

Results flagged for a closer look

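Of 203 sets of 4 newborn values examined, 17 held a value far from the other 3 by Dixon's test at the 95% level, which chance alone flags in about 1 of 20 sets. P1_Ctl library 3 stood apart in 11 of them. It was low for Cox8a (416 CPM), Erbb2 (64.2 CPM), Fn1 (518 CPM), Myl7 (71.4 CPM), Myl9 (411 CPM), Postn (481 CPM) and Tnni1 (1697 CPM). It was high for Lyve1 (43.2 CPM), Mt1 (241 CPM), Ryr2 and Vwf, with 1261 and 111 CPM. P1_Ctl library 2 was high for Fos (34.7 CPM) and Vegfa (336 CPM). P1_Ctl library 4 stood apart for Acta2 (1681 CPM), Cox8b (200 CPM) and mt-Co2 (291 CPM), and library 1 for Ppargc1a (171 CPM).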

How the results depend on the processing

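The count of 2882 called genes stayed within 1.5 times under DESeq2 (3421), limma-voom (2832), other scalings (2833 to 3070) and other filters (2614 and 2715). It was 1790 with a sex term and 6946 without P1_Ctl libraries 3 and 4, and ran from 1227 to 4050 with 1 library left out. The labels give both ages the same replicate numbers. Deviations of same-numbered libraries from their group means had correlations of -0.1585, 0.0098 and -0.0328. With 3 and 4 libraries these cannot decide whether the numbers pair the samples. With the replicate block 1614 genes were called, and 9 of the 94 called genes described above were not. They were Ckb, Fos, Hcn4, Mbnl1, Myh6, Nr4a1, Slc16a3, Tubb2b and mt-Atp8, with edgeR adjusted p of 0.056 to 0.097. With a sex term the number called fell by over 1.5 times in several lists: immediate early genes (1 called), ribosomal proteins of the cytosol (8) and of mitochondria (2), ribosome biogenesis (2), collagens (6), natriuretic peptides (3), citric acid cycle (3), complex I (2), complexes III and V (0), mitosis (0), interferon response (3) and chaperones of the endoplasmic reticulum (2). The same held for hormone receptors and enzymes (from 5 to 3) and for MBNL and CELF proteins (from 2 to 1). It also held for lymphatic endothelium, neutrophils and mast cells, MHC class II, and nerve and Schwann cells. Under limma-voom the calls of Ccnb1, Fos, Nr4a1, Slc16a3, Tubb2b and mt-Atp8 ended, with adjusted p of 0.054 to 0.20. With all 27 libraries in the fit those of Ccnb1, Hcn4, Mbnl1 and mt-Atp8 ended (0.058 to 0.11), besides Cacna1h and Tnni1. The mitochondrial share differed by 4.67 points as a percent of nuclear counts. Without P1_Ctl libraries 3 and 4 the sign turned for 4 named genes, Acot1 (2.65), Cdc6 (-0.41), Esrra (0.24) and Serpina3n (2.09), and the cause was not tested. Total count scaling shifted the median of all genes to -0.06. Depth limits genes near 0.115 to 0.126 CPM.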
